A study of Mus musculus with 9 samples.

Results

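The genes described here are 9 that fill, empty and sense the calcium store of the endoplasmic reticulum (ER): the inositol trisphosphate (IP3) receptors Itpr1, Itpr2 and Itpr3, the pumps Atp2a2 and Atp2b1, the store sensors Stim1 and Stim2, the entry channel Orai1 and the mitochondrial uniporter Mcu. They were chosen by symbol for their known roles, with earlier results of these data known. All 9 were found among the 36410 genes of a table of mRNA counts. The table holds 9 RNA-seq libraries from immortalized striatal cells of mouse embryos, strain C57/BL6, with 3 libraries for each of 3 lines. Control cells (STHdhQ7/Q7) carry huntingtin with 7 glutamine repeats (Glu in the labels) on both alleles, HD-het cells (STHdhQ7/Q111) carry 7 on 1 allele and 111 on the other, and HD-homo cells (STHdhQ111/Q111) carry 111 on both. The repeat was introduced by knock-in into Htt exon 1, so huntingtin is made from the endogenous gene, also in control cells. The cells are a model of Huntington disease (HD). Each genotype is represented by 1 line, so genotype and line cannot be told apart. Nothing states that the 3 libraries of a line came from separate cultures, and p-values therefore measure only the spread between these libraries.

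The libraries held from 29507665 to 41197931 counted reads. Levels are given as normalized counts per megaread (CPM), with the SD over 3 libraries, and fold changes come from the quasi-likelihood test of edgeR, with p-values adjusted by Benjamini-Hochberg over the 13508 genes that passed the filter on low counts, all 9 members among them. A gene was called different where the adjusted p was under 0.05. The 3 comparisons share libraries pairwise and are not independent of each other. Htt, which carries the repeats, was at 93.0 to 104 CPM in the control libraries, 62.3 ± 1.51 CPM in HD-het and 20.2 ± 1.29 CPM in HD-homo cells (SD, n = 3), and these counts do not separate the alleles. HD-homo replicate 2 was the deepest library and differed most from its fellow replicates relative to counting noise. Neuronal markers were largely missing: Drd1 and Slc32a1 had 0 reads in all libraries, Rbfox3 stayed below 0.1 CPM, and most of the summed striatal neuron markers came from Foxp1. The neural progenitor markers summed to 667 to 709 CPM in control, 966 to 1005 CPM in HD-het and 32.7 to 45.5 CPM in HD-homo libraries, the smooth muscle markers to 2314 to 2708, 6869 to 7531 and 99.3 to 184 CPM, and the fibroblast markers to 2115 to 2815, 6340 to 7799 and 5815 to 6332 CPM. Single markers went other ways than these sums. The smooth muscle sum was mostly Acta2 and Tagln. Myh11 was at 28.5, 32.5 and 29.9 CPM and Des at 1.72, 1.44 and 2.57 CPM in control, in HD-het and in HD-homo cells. The fibroblast sum in HD-het cells was mostly Col1a1, whose means were 2465, 7097 and 4234 CPM in this order of lines. Col1a2 was at 73.4, 3.15 and 1494 CPM, and Dcn at 4.06, 1.65 and 21.5 CPM. Pdgfra was at 5.21, 4.38 and 307 CPM. Col1a2, Dcn and Pdgfra thus had their highest mean in HD-homo cells, unlike Col1a1. The progenitor sum was mostly Nes, at 526, 840 and 28.4 CPM in control, in HD-het and in HD-homo cells. Pax6 and Msi1 had the same order of lines. Sox2 was at 128, 82.9 and 5.48 CPM, Sox1 was also highest in control cells, and Fabp7 was at 0.396, 8.23 and 1.01 CPM. These sums move with the lines that are compared below, and their part in the results was not tested. In bulk libraries a change in the share of a cell state and a change of mRNA per cell cannot be told apart.

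The ER stores calcium that SERCA pumps load from the cytosol. When receptors at the cell surface activate phospholipase C, IP3 opens the IP3 receptors and the store releases calcium. A drop in luminal calcium is sensed by STIM proteins in the ER membrane, which gather at contacts with the plasma membrane and open ORAI channels, a process called store-operated entry. Plasma membrane pumps then export calcium, and the uniporter takes part of it into mitochondria. The type 1 IP3 receptor is the abundant form in striatal projection neurons, and mutant huntingtin is known to bind it.

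In HD-homo cells all 9 members differed from controls, 4 being higher and 5 lower, where 58.6% of all tested genes were called (29.6% higher and 28.9% lower). Itpr2, Atp2b1, Stim1 and Mcu were higher, and Itpr1, Itpr3, Atp2a2, Stim2 and Orai1 were lower. Between HD-het and control cells, 5 members differed, 1 higher (Stim1) and 4 lower (Itpr1, Itpr2, Atp2b1 and Mcu), where 65.1% of all genes were called (33.8% higher and 31.4% lower). Between HD-homo and HD-het cells 8 members differed, 4 in each direction, where 71.6% of all genes were called (36.0% higher and 35.6% lower). With so many genes called, these shares do not set the members apart from other genes.

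The differences were mostly small. No member was called with a change of at least 1 on the log2 scale between HD-homo and control cells, where 19.1% of all genes were. Itpr1 alone among the members was called with such a change between HD-het and control cells (18.4% of all genes). Itpr2 and Mcu were between HD-homo and HD-het cells (24.3% of all genes). The median size of the log2 fold change over the 9 members was 0.44 in HD-homo against control cells, beside 0.32 over all tested genes, 0.35 beside 0.40 in HD-het against control cells, and 0.60 beside 0.46 in HD-homo against HD-het cells. The signed medians were -0.27 beside 0.0077, 0.012 beside 0.025 and -0.15 beside 0.0017.

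**Figure D1:**
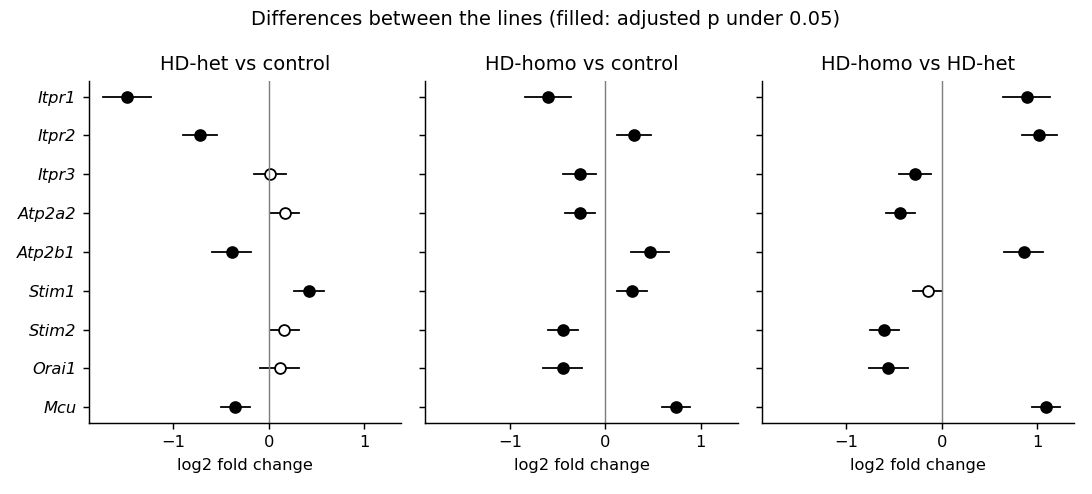
Log2 fold change of each gene in the 3 comparisons of the lines, with its 95% interval as a line. Filled points passed an adjusted p under 0.05 and open points did not; Itpr1 in HD-het against control cells lies farthest from 0, at -1.49.

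The members fell into 4 orders of level over the lines. Itpr2, Atp2b1 and Mcu were highest in HD-homo, intermediate in control and lowest in HD-het cells, and for all 3 genes each line differed from both others. Itpr3, Atp2a2, Stim2 and Orai1 were lowest in HD-homo cells, and their levels in HD-het and control cells did not pass the test for a difference. Itpr1 was highest in control and lowest in HD-het cells, with HD-homo cells between them. Stim1 was lowest in control cells, while HD-het and HD-homo cells did not pass the test against each other. The heat map of the libraries shows the same orders in single libraries.

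**Figure D2:**
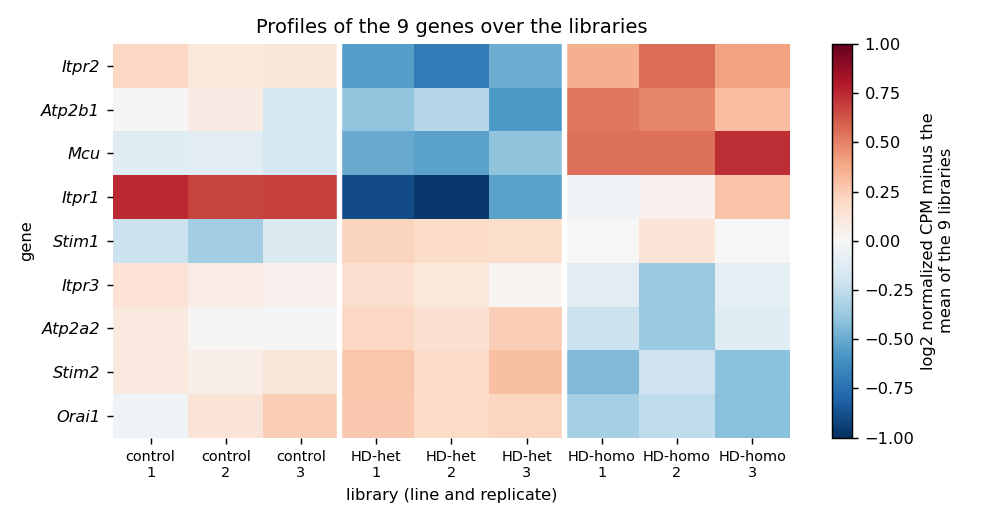
Log2 normalized CPM of the 9 genes in each of the 9 libraries, minus the gene's mean over the libraries, as colour. The top 3 rows are low in all HD-het and high in all HD-homo libraries, and the bottom 4 rows are low in all HD-homo libraries.

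Promoters of some members that share an order are shown to let their sequence be compared. Each runs 5' to 3' in the direction of the gene from 250 bases before to 50 bases after its start site, from RefSeq on GRCm38.p6, and capitals mark CCAAT and GGGCGG on either strand (ATTGG and CCGCCC on the other). The first 3 belong to the genes highest in HD-homo cells: Itpr2 at chr6:146502174-146502473 on the minus strand, Atp2b1 at chr10:98914902-98915201 on the plus strand, the start of its longest annotated transcript, and Mcu at chr10:59616643-59616942 on the minus strand.
Itpr2: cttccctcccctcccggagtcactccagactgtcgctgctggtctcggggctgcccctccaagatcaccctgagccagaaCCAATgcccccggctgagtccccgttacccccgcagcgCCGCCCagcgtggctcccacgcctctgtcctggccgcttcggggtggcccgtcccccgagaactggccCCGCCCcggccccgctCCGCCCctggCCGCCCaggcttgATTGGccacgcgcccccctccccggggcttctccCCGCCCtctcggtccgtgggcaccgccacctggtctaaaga
Atp2b1: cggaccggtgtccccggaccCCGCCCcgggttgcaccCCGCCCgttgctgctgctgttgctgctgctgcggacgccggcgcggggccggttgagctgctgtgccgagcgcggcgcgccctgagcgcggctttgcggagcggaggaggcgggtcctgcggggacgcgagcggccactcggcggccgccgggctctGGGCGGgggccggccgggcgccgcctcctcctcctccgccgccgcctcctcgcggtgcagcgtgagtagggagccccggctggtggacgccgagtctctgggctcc
Mcu: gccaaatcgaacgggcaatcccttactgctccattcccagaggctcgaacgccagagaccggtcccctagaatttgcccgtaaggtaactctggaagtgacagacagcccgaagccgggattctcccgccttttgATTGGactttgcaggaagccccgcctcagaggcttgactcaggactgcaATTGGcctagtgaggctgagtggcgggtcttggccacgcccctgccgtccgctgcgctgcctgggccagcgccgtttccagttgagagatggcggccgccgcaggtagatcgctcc
The other 2 belong to genes lowest in HD-homo cells: Stim2 at chr5:53998273-53998572 and Orai1 at chr5:123014824-123015123, both on the plus strand. Of the same group, the promoter of Itpr3 is not printed and held 0 CCAAT and 1 GGGCGG, and none of this length was given for Atp2a2.
Stim2: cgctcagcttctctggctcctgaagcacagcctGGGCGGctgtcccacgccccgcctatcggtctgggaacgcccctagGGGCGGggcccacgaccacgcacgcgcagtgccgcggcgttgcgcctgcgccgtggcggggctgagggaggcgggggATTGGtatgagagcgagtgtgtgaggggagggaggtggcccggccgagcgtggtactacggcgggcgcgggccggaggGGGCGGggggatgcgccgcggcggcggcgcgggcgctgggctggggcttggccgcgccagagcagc
Orai1: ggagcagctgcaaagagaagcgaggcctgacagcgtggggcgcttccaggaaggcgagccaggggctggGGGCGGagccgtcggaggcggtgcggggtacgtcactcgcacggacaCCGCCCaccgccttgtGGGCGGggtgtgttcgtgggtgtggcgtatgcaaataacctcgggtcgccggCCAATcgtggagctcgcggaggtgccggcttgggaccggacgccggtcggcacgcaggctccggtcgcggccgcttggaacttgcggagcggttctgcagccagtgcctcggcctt

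Promoters of this length were given for 7 of the 9 members. CCAAT, the letters of the CCAAT box, was found for 4 of these 7 genes (Itpr2, Mcu, Stim2 and Orai1), while 37.4% of 32851 promoters of the same length held it. GGGCGG, the letters of the GC box, was found for all of them except Mcu, and 35.7% of all promoters held it. Stim1 held 8 matches, the most of the 7, and Itpr2 held 5. Among the other motifs searched on both strands, CCACG was found for 5 of the 7 genes (32.8% of all promoters), GGAAA for Mcu and, at a start site not printed here, Atp2b1 (61.3%) and TATAAA for none (13.6%). GC content was between 61.7% and 79.3% in the members' promoters, and its median over all promoters was 52.7%. Neither CCAAT nor GGGCGG separated the genes highest in HD-homo cells from those lowest there. A match describes letters in this window and says nothing of a factor's binding.

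Itpr1 encodes the type 1 IP3 receptor, a calcium release channel of the ER, and lies at chr6:108213096-108551109 on the plus strand of GRCm38. Its mRNA was at 88.6, 84.8 and 85.0 CPM in the control libraries, at 28.5, 27.1 and 36.5 CPM in the HD-het libraries and at 51.7, 54.5 and 64.7 CPM in the HD-homo libraries. The 3 lines did not overlap, and HD-het replicate 3, the highest of its line, was still below every HD-homo library. The level was 2.81-fold lower in HD-het than in controls (log2 fold change -1.49, SE 0.11, adjusted p = 7.86e-07). It was 1.51-fold lower in HD-homo than in controls (-0.60, SE 0.11, adjusted p = 0.000728). HD-homo cells had 1.86-fold more Itpr1 mRNA than HD-het cells (0.89, SE 0.11, adjusted p = 2.62e-05). The line with 111 repeats on 1 allele was thus the one farthest from control cells.

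Itpr2 encodes the type 2 receptor and lies at chr6:146108299-146502223 on the minus strand. It was at 25.4, 23.8 and 23.9 CPM in the control libraries, at 15.0, 13.6 and 15.7 CPM in the HD-het libraries and at 28.3, 32.5 and 29.2 CPM in the HD-homo libraries. Again the lines did not overlap, but here the HD lines stood on opposite sides of control cells. The level was 1.65-fold lower in HD-het cells (-0.72, SE 0.08, adjusted p = 1.58e-05) and 1.23-fold higher in HD-homo cells (0.30, SE 0.08, adjusted p = 0.00714), both against control cells. HD-homo exceeded HD-het cells 2.03-fold (1.03, SE 0.08, adjusted p = 6.03e-07).

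Itpr3 encodes the type 3 receptor and lies at chr17:27057304-27122223 on the plus strand. It was at 265, 254 and 247 CPM in the control libraries, at 270, 258 and 245 CPM in the HD-het libraries and at 224, 186 and 226 CPM in the HD-homo libraries. Control and HD-het libraries overlapped and every HD-homo library was below them, with replicate 2 the lowest. Itpr3 was 1.20-fold lower in HD-homo than in controls (-0.27, SE 0.08, adjusted p = 0.0113), and without HD-homo replicate 2 the log2 fold change was -0.18 (adjusted p = 0.0257). Against HD-het cells the HD-homo level was 1.21-fold lower (-0.28, SE 0.08, adjusted p = 0.00667). HD-het differed from control cells by 0.01 (log2 scale), with a 95% interval from -0.16 to 0.18 (adjusted p = 0.901).

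Levels of different genes were compared per kilobase (kb) of the longest coding transcript in GENCODE release 21. On this scale the IP3 receptors together were at 39.2 ± 1.29 CPM per kb in control, 33.0 ± 1.05 in HD-het and 31.9 ± 2.68 in HD-homo cells (SD, n = 3). Itpr3 made up 72.4% ± 0.304 of this sum in control, 86.7% ± 2.04 in HD-het and 73.8% ± 2.57 in HD-homo cells. Itpr1 made up 22.3% ± 0.263, 9.44% ± 1.75 and 18.1% ± 1.74, and Itpr2 made up 5.32% ± 0.0675, 3.83% ± 0.304 and 8.12% ± 1.29 in the same order of lines (SD, n = 3). On this scale the share of Itpr3 was highest in HD-het cells, where that of Itpr1 was lowest.

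The shares of Itpr1 and Itpr2 did not overlap between any of the lines, and that of Itpr3 overlapped between control and HD-homo libraries. In an exact two-sided permutation test, 11 of 12 comparisons of shares, counting those of Stim1 below, gave p = 0.1, the smallest that 3 libraries against 3 allow, and an adjusted p of 0.109; Itpr3 in HD-homo against control cells gave p = 0.5. The sizes of the shares rest on transcript length. With the median length of the annotated coding transcripts, which is 807 bases for Itpr1 against 9870 for its longest, Itpr1 made up 76.3% in control, 54.5% in HD-het and 70.5% in HD-homo cells, and Itpr3 20.3%, 41.4% and 23.6%, so that Itpr1 and not Itpr3 led in every line and the mix was then the most even in HD-het cells. A transcript of 807 bases cannot encode the 2749 amino acids of the longest Itpr1 transcript, so this median does not describe mRNA of the full receptor. With the length of the transcript marked as principal, an alternative chosen after seeing the data, Itpr1 made up 21.8% and Itpr3 70.9% in control cells. Under all of these lengths the share of Itpr1 was lowest, and that of Itpr3 highest, in HD-het cells. For Itpr3 this could not change with the length. Each gene has 1 length for all libraries, and mean Itpr3 CPM relative to either other receptor was highest in HD-het cells.

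**Figure D3:**
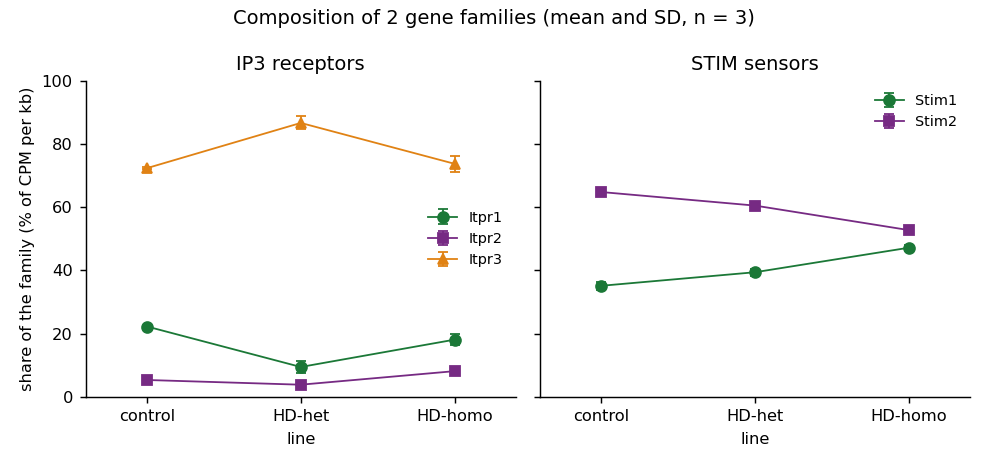
Share of each gene in the length-normalized mRNA (CPM per kb) of the IP3 receptors (left) and the STIM sensors (right) in each line, as mean and SD of 3 libraries. Itpr3 rises to 86.7% in HD-het cells while Itpr1 falls to 9.44%, and the share of Stim1 goes from 35.2% in control to 47.2% in HD-homo cells.

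Atp2a2 encodes SERCA2, the pump that loads the ER store, and lies at chr5:122453513-122502225 on the minus strand. With 157 CPM per kb over the 9 libraries it was the most abundant of the members per length. It was at 746, 704 and 692 CPM in the control libraries, at 806, 776 and 825 CPM in the HD-het libraries and at 599, 540 and 642 CPM in the HD-homo libraries. The HD-homo libraries were the lowest and the HD-het libraries the highest, with no overlap. The level was 1.20-fold lower in HD-homo than in controls (-0.27, SE 0.07, adjusted p = 0.00667; without HD-homo replicate 2 it was -0.20, adjusted p = 0.0182) and 1.35-fold lower than in HD-het cells (-0.43, SE 0.07, adjusted p = 0.000163). The difference of 0.17 between HD-het and control cells (SE 0.07, 95% interval from 0.02 to 0.32) lay at the threshold, with adjusted p = 0.0503, and passed it under 5 of the alternatives tried, among them the Wald test of DESeq2 (adjusted p = 0.0416).

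Atp2b1 encodes PMCA1, a plasma membrane pump that exports calcium, and lies at chr10:98914406-99026143 on the plus strand. Per length it came second after Atp2a2, at 34.6 CPM per kb. It was at 241, 253 and 212 CPM in the control libraries, at 182, 196 and 161 CPM in the HD-het libraries and at 345, 336 and 295 CPM in the HD-homo libraries. The lines did not overlap, and HD-homo cells had the highest level, where that of Atp2a2 was the lowest. HD-homo cells exceeded controls 1.38-fold in Atp2b1 (0.47, SE 0.09, adjusted p = 0.00106) and HD-het cells were 1.31-fold below controls (-0.39, SE 0.09, adjusted p = 0.00299). HD-homo exceeded HD-het cells 1.81-fold (0.86, SE 0.09, adjusted p = 6.92e-06).

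**Figure D4:**
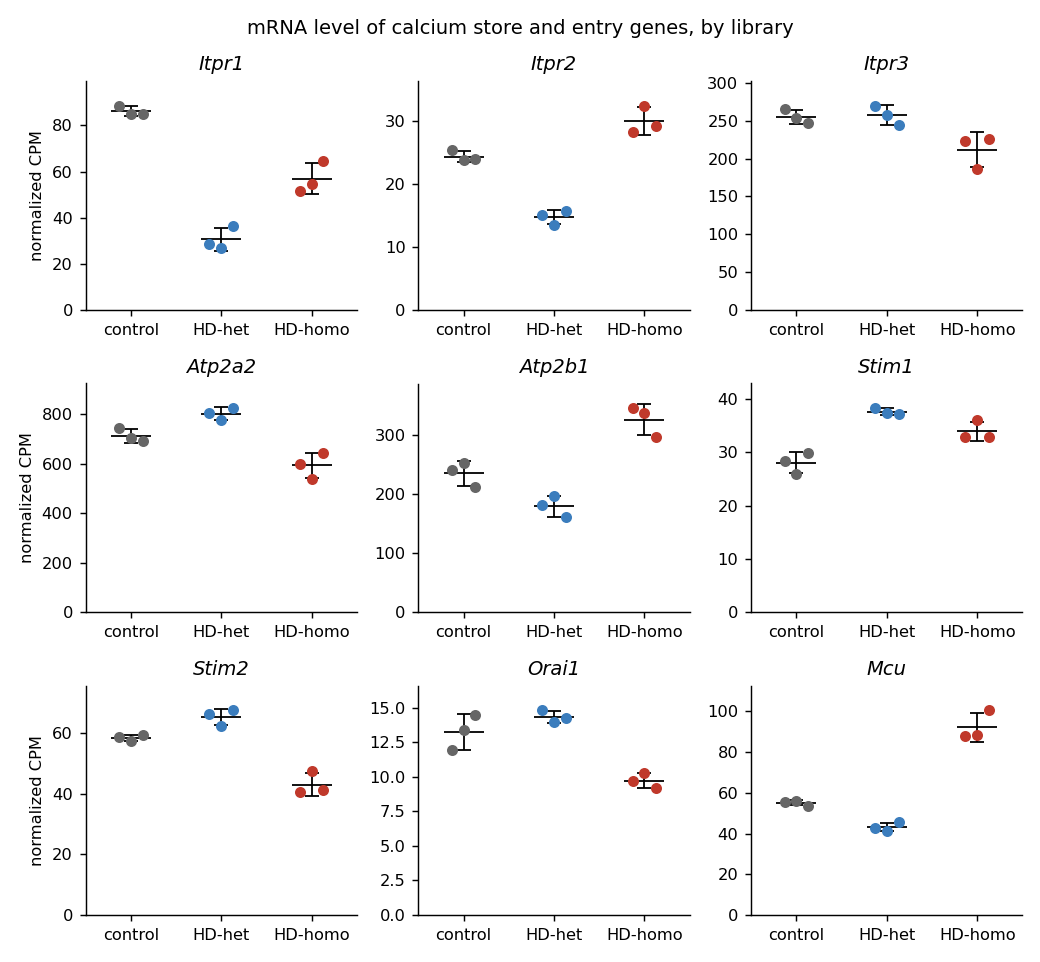
Normalized CPM of the 9 genes in each library of control, HD-het and HD-homo cells (points), with the mean and SD of 3 libraries (horizontal line and bars), on linear axes that start at 0. For Mcu the HD-homo libraries lie between 88.1 and 100.5 CPM, above all others, and for Itpr1 the HD-het libraries lie between 27.1 and 36.5 CPM, below all others.

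Stim1 encodes a sensor of luminal calcium that opens ORAI channels when the store empties, and lies at chr7:102267806-102437319 on the plus strand. It was at 28.3, 25.9 and 29.9 CPM in the control libraries, at 38.3, 37.4 and 37.1 CPM in the HD-het libraries and at 32.9, 36.0 and 33.0 CPM in the HD-homo libraries. Every library of both HD lines was above every control library, and Stim1 was the only member higher in both. The level was 1.34-fold higher in HD-het cells (0.42, SE 0.07, adjusted p = 0.000291) and 1.21-fold higher in HD-homo cells (0.28, SE 0.07, adjusted p = 0.00605), each against control cells. HD-homo differed from HD-het cells by -0.15 (SE 0.07, 95% interval from -0.30 to 0.01, adjusted p = 0.0788). Without HD-homo replicate 2, the highest of its line, that difference was -0.19 with adjusted p = 0.0374.

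Stim2 encodes the second sensor, which responds to smaller losses of luminal calcium and tunes resting levels, and lies at chr5:53998499-54121057 on the plus strand. It was at 58.5, 57.4 and 59.3 CPM in the control libraries, at 66.3, 62.3 and 67.4 CPM in the HD-het libraries and at 40.4, 47.5 and 41.1 CPM in the HD-homo libraries. Unlike Stim1, it was lowest in HD-homo cells, with no overlap between the lines. The level was 1.36-fold lower in HD-homo than in controls (-0.44, SE 0.07, adjusted p = 0.000255) and 1.52-fold lower than in HD-het cells (-0.60, SE 0.07, adjusted p = 1.38e-05). HD-het exceeded control cells by 0.16 (SE 0.07, 95% interval from 0.01 to 0.32), which did not pass after adjustment (adjusted p = 0.0609) in the fit to all lines and did in a fit to these lines alone (adjusted p = 0.0193).

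The sensors thus moved in opposite directions between HD-homo and control cells, and their mix shifted. Per kb, Stim1 made up 35.2% ± 1.25 of both sensors in control, 39.5% ± 1.04 in HD-het and 47.2% ± 0.941 in HD-homo cells (SD, n = 3), with no overlap between lines, and Stim2 the rest. With the median transcript length the share of Stim1 was 42.8%, 47.3% and 55.2%, so which sensor was in excess in HD-homo cells depends on the length used. The order of the lines could not change with the length, since each gene has 1 length for all libraries. The sensors together were at 18.3 ± 0.655 CPM per kb in control, 21.9 ± 0.572 in HD-het and 16.5 ± 1.20 in HD-homo cells (SD, n = 3).

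Orai1 encodes the pore of the store-operated channel in the plasma membrane and lies at chr5:123015074-123030456 on the plus strand. It was at 11.9, 13.4 and 14.5 CPM in the control libraries, at 14.8, 14.0 and 14.2 CPM in the HD-het libraries and at 9.72, 10.3 and 9.16 CPM in the HD-homo libraries. All HD-homo libraries were below the other 6, and control and HD-het libraries overlapped. Orai1 was 1.37-fold lower in HD-homo than in controls (-0.45, SE 0.09, adjusted p = 0.00161) and 1.48-fold lower than in HD-het cells (-0.56, SE 0.09, adjusted p = 0.000203). The difference between HD-het and control cells was 0.11 (SE 0.09, 95% interval from -0.09 to 0.31, adjusted p = 0.294).

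Mcu encodes the pore of the uniporter through which mitochondria take up calcium and lies at chr10:59446984-59616692 on the minus strand. It was at 55.3, 56.2 and 53.7 CPM in the control libraries, at 42.5, 41.5 and 45.7 CPM in the HD-het libraries and at 88.1, 88.3 and 100.5 CPM in the HD-homo libraries. The lines did not overlap, and Mcu had the largest fold change of the members between HD-homo and control cells. It was 1.68-fold higher there (0.74, SE 0.07, adjusted p = 2.64e-06) and 1.27-fold lower in HD-het than in controls (-0.35, SE 0.07, adjusted p = 0.000839). HD-homo exceeded HD-het cells 2.14-fold (1.09, SE 0.07, adjusted p = 7.75e-08).

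Over the 9 libraries the order per kb was Atp2a2 at 157, Atp2b1 at 34.6, Itpr3 at 26.9, Mcu at 22.1, Stim2 at 11.3, Stim1 at 7.61, Orai1 at 6.64, Itpr1 at 5.87 and Itpr2 at 1.97 CPM per kb. Atp2a2 stayed above all others in every library, while the ranges of Atp2b1, Itpr3 and Mcu over the libraries overlapped, and each of the genes from Stim2 down to Itpr1 overlapped the next one in the order. With the median transcript length Itpr1 rose to 71.8 and Atp2b1, then the highest, to 169, so the rank of these genes rests on the transcript length assumed. These medians, 807 and 1460 bases, are too short to encode the 2749 and 1220 amino acids of the longest transcripts. The principal transcripts of both genes have the length used for the order above, 9870 and 7130 bases. Few sequence stretches of the members occur in other genes. Of the 50-base words of the longest transcript, 5.43% of those of Atp2a2, 2.13% of those of Atp2b1, 2.03% of those of Itpr1 and 1.51% of those of Itpr3 occur in other genes, most of all in Gm30970, Gm29808, Gm44101 and Itpr3os, and 0% of those of the other members do. Gm44101 and Gm44040 overlap exons of Itpr1 by 181 and 108 bases on the opposite strand, and Itpr3os those of Itpr3 by 233 bases; the libraries keep strand, but the setting used for counting is not given in the sources used here.

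For the 3 members with the widest range over the lines, the genes with the most similar profile over the 9 libraries were searched by the root mean square difference of centred log2 CPM. For Itpr1, whose line means span 1.50 on the log2 scale, these were Tmem267 (0.113), Ipmk (0.124) and Dpf1 (0.133). Ipmk, an inositol phosphate kinase, was at 79.3 ± 2.65 CPM in control, 25.3 ± 1.88 in HD-het and 47.8 ± 0.900 in HD-homo cells (SD, n = 3). For Mcu the nearest were Shq1 (0.0733), Dusp14 (0.0752) and Wwp2 (0.0753), and for Itpr2 they were Gja1 (0.0735), Frs2 (0.0766) and Cited2 (0.0780). Gja1, which encodes the gap junction protein connexin 43, was at 356 ± 27.4, 219 ± 10.2 and 415 ± 26.9 CPM in control, in HD-het and in HD-homo cells (SD, n = 3). With 3 lines, many genes can share an order, and the likeness is a description.

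Other genes of calcium handling were taken from 9 lists by role. Of 113 genes written, 111 were listed in the table and 94 were tested. In HD-homo against control cells 31 were higher, 33 lower and 30 not called; in HD-het against control cells 43 were higher, 19 lower and 32 not called; and in HD-homo against HD-het cells 21 were higher, 50 lower and 23 not called. Over all tested genes 29.6% were higher and 28.9% lower in the first of these comparisons, 33.8% and 31.4% in the second, and 36.0% and 35.6% in the third, and the counts per list below stand against the same shares. The median log2 fold change over the 94 genes was -0.03, 0.20 and -0.25 in these comparisons. The plot of the lists shows these genes by role.

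**Figure D5:**
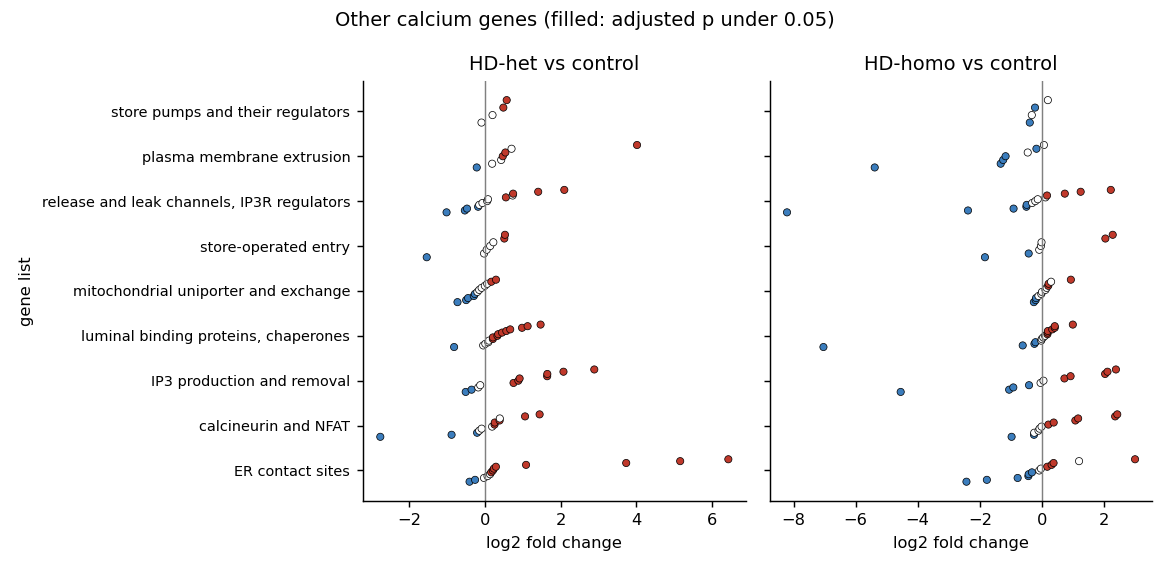
Log2 fold change of the other tested calcium genes against control cells, by list (rows), in HD-het (left) and HD-homo cells (right). Red and blue points were higher and lower at an adjusted p under 0.05 and white points did not pass; the points farthest from 0 belong to genes with few or no reads in 1 line, whose fitted size depends on the small count added to all libraries in the fit.

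In the store-operated entry list, 7 genes were tested. Orai2, a second channel subunit of the ORAI family, was at 20.5 ± 0.942 CPM in control, 21.2 ± 1.85 in HD-het and 84.9 ± 22.4 in HD-homo cells (SD, n = 3). It had thus 4.13 times its control level in HD-homo cells (2.05, SE 0.16, adjusted p = 7.28e-07), where Orai1 was lower. Orai3 and Saraf, an inhibitor of store-operated entry, were higher in HD-het than in controls, by 0.51 (SE 0.08, adjusted p = 0.000244) and 0.53 (SE 0.07, adjusted p = 3.46e-05), and differed by -0.01 (adjusted p = 0.922) and -0.03 (adjusted p = 0.725) between HD-homo and control cells. Trpc1 was lower in HD-homo cells by 0.42 on the log2 scale, at 12.5 ± 1.28 CPM beside 16.7 ± 1.15 CPM in control cells (SD, n = 3; adjusted p = 0.00926). Cracr2a and Cracr2b, cytosolic regulators of ORAI channels, stayed below 1.3 CPM in all libraries; against control cells Cracr2a was higher in HD-homo cells (adjusted p = 0.00018) and Cracr2b was lower in both HD lines (adjusted p = 0.000354 in HD-homo and 0.000844 in HD-het cells).

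Of 12 tested genes of mitochondrial uptake and exchange, 3 were higher and 3 lower in HD-homo than in controls, and 2 were higher and 5 lower in HD-het than in controls. Smdt1, the uniporter's essential small subunit, named here after its values were seen, fell by 0.44 on the log2 scale in HD-het cells against controls (SE 0.07, adjusted p = 0.000175), and HD-homo differed from control cells by 0.12 (SE 0.07, adjusted p = 0.163). Slc8b1, the mitochondrial sodium/calcium exchanger, was 1.41-fold lower in HD-het than in controls (adjusted p = 0.00287). Ghitm was above controls in both HD lines, 1.23-fold in HD-het (adjusted p = 0.000337) and 1.16-fold in HD-homo cells (adjusted p = 0.00316). Vdac3, an outer membrane channel, was below controls in both, 1.22-fold in HD-het (adjusted p = 0.000973) and 1.19-fold in HD-homo cells (adjusted p = 0.00275).

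Among the other pumps and their regulators, 4 genes were tested, and all 4 were lower in HD-homo cells than in HD-het cells, beside 35.6% of all genes. The further SERCA genes were scarce, Atp2a1 at no more than 2.51 CPM and Atp2a3 at no more than 2.35 CPM in any library, and Pln, which encodes the SERCA inhibitor phospholamban, had at most 2 reads and was not tested. Atp2c1, a pump of the Golgi apparatus, was 1.40-fold higher in HD-het (0.49, SE 0.06, adjusted p = 1.87e-05) and 1.17-fold lower in HD-homo than in controls (-0.22, SE 0.06, adjusted p = 0.00612). Tmx1, a thioredoxin-related ER protein that acts on SERCA2, was 1.31-fold lower in HD-homo than in controls (-0.39, SE 0.06, adjusted p = 0.000121).

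Of 7 tested genes of plasma membrane extrusion, 5 were lower and 0 higher in HD-homo than in controls, beside 28.9% lower and 29.6% higher over all genes. Few reads stood behind some of these 5. Atp2b3 had 4 to 14 reads per control and 3 to 6 per HD-homo library, and its levels overlapped. Slc8a3 had 7 to 14 and 3 to 7 reads. The list leaves out the member Atp2b1, whose mean went the other way, from 235 CPM in control to 325 CPM in HD-homo cells. Atp2b4, which encodes PMCA4, was at 78.6 ± 12.8 CPM in control, 114 ± 26.5 in HD-het and 34.9 ± 6.59 in HD-homo cells (SD, n = 3) and was 2.25-fold lower in HD-homo than in controls (-1.17, SE 0.19, adjusted p = 0.000267). Slc8a1, the sodium/calcium exchanger, was at 21.2 ± 1.59 CPM in HD-het cells (SD, n = 3) and between 1.08 and 1.55 CPM in the control libraries (adjusted p = 6.41e-09), and had between 0 and 2 reads in each HD-homo library. Nptn and Bsg, which encode PMCA subunits, changed less: Nptn was 1.13-fold lower in HD-homo (adjusted p = 0.0231) and 1.39-fold higher in HD-het cells (adjusted p = 2.95e-05), and Bsg was 1.16-fold lower in HD-het cells (adjusted p = 0.0183). Slc8a1 and Atp2b4 had the same order of lines as both the smooth muscle and the neural progenitor marker sums given above. The single markers Myh11, Des, Sox2, Sox1 and Fabp7 had other orders. The part of these cells or markers was not tested.

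Among 13 tested release channels, leak channels and IP3 receptor regulators, 4 were higher and 5 lower in HD-homo than in controls, and 4 were higher and 4 lower in HD-het cells. Bcl2, which binds and restrains IP3 receptors beside its role in apoptosis, was at 33.2 ± 0.867 CPM in control, 16.5 ± 1.86 in HD-het and 6.39 ± 0.711 in HD-homo cells (SD, n = 3), 5.19-fold lower in HD-homo than in controls (adjusted p = 6.68e-09) and 2.02-fold lower in HD-het cells (adjusted p = 4.39e-06). Itpripl2, named for its similarity to an IP3 receptor interacting protein, had 4.67 times its control level in HD-homo cells (adjusted p = 3.2e-09). In HD-het cells it had 2.65 times its control level (adjusted p = 1.69e-07). Of the ryanodine receptors, Ryr2 had at most 1 read in any library, and Ryr3 was at 3.81 ± 1.28 CPM in control and 16.4 ± 7.18 CPM in HD-het cells (SD, n = 3; adjusted p = 0.000237), with at most 1 read in an HD-homo library. Of 15 tested luminal calcium-binding proteins and chaperones, 10 were higher and 1 lower in HD-het than in controls, beside 33.8% and 31.4% of all genes, and 7 were higher and 4 lower in HD-homo cells, beside 29.6% and 28.9%. Rcn3, a luminal calcium-binding protein, was 2.77-fold higher in HD-het (adjusted p = 7.18e-08) and 2.00-fold higher in HD-homo than in controls (adjusted p = 1.07e-06).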

How the data were processed

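RNA was measured in 9 libraries of 3 striatal cell lines. The authors selected poly(A) RNA, prepared directional libraries and deposited whole-number counts of reads per gene symbol, without normalization. The submitters' processing notes name cutadapt, Bowtie 1.1.2, RSEM 1.3.0, DESeq2, GRCm38.p5 and mm10, without the role of each, so the deposited counts may be rounded estimates, and reads shared by similar genes may have been divided between them. All columns were used. In 26 rows a date stands in place of a symbol, and 2 symbols appear a second time. Totals per library ran from 29507665 to 41197931, so a count of 3 corresponded to between 0.0710 and 0.101 normalized CPM, which covers counting error only.

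The fit used edgeR 4.0.16 in R 4.3.3: filterByExpr (minimum count 10), TMM factors between 0.984 and 1.03, 1 mean per line in a fit to all 9 libraries, two-sided quasi-likelihood tests for 3 comparisons, and Benjamini-Hochberg adjustment over 13508 genes with a threshold of 0.05. SEs were taken from the log2 fold change and its F statistic, and intervals are at 95%. Replicate libraries of a line differed by more than counting noise in all pairs (2.20 to 39.2 times). The pipeline was also run on simulated counts, with the same dispersion for all genes and changed genes in HD-homo libraries only. That setting is simpler than these data, and its outcome is not reported here. Alternatives were other size factors, library totals only, the Wald test of DESeq2 1.42.0, other filters, thinned counts, a prior count of 2, a fit to the compared lines alone, the replicate number as a block, leaving out each library, and a log2 fold change of at least 1.

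Positions, transcript lengths and shared 50-base words come from GENCODE release 21 on GRCm38, in which 13117 of 13508 tested symbols were found. Promoters come from RefSeq on GRCm38.p6. The members, the lists and the tests were chosen with earlier results of these data known. From each list the text names the tested genes with the highest and lowest log2 fold change against control cells among those called at 10 CPM or more in the line where the gene is higher, and all genes of lists with 8 or fewer tested. Genes with similar profiles were searched among 12996 genes with a read in every library, a limit chosen after seeing the data. Some genes that this rule names are not reported here.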

Additional observations from a re-analysis of the deposited data

How the results depend on the processing

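Over the alternatives to the fit, 395 of 405 fold changes of the members kept their direction and their side of the threshold, 7 passed the threshold that the reported value had missed, 3 turned in sign and 0 were lost, so each of the 22 called fold changes stayed called. The 3 that turned belong to Itpr3 in HD-het against control cells, a difference near 0: it was -0.00208 with library totals only, -0.023 without HD-het replicate 1 and -0.012 without control replicate 3, and ran up to 0.0485 over the libraries left out. Atp2a2 in HD-het against control cells passed with library totals only (0.154, adjusted p = 0.0484), the DESeq2 Wald test (0.166, adjusted p = 0.0416), at least 10 counts in every library (0.174, adjusted p = 0.0439), and only the compared lines (0.165, adjusted p = 0.0174), where Stim2 passed too (0.158, adjusted p = 0.0193). Stim1 in HD-homo against HD-het cells passed without HD-homo replicate 2 (-0.191, adjusted p = 0.0374); over the libraries left out it ran from -0.191 to -0.124. The cause of these shifts was not tested. Where calls also had to reach 1 on the log2 scale, the counts in HD-homo against control, HD-het against control and HD-homo against HD-het cells were 0, 1 and 2 members, 24, 18 and 25 other calcium genes, and 2574, 2490 and 3285 of all genes; this setting is stricter by construction. The thinned counts, the other size factors and no filter changed no call of a member. The prior count of 2 enters the fitted fold change and not its p-value, so it could not change a call. The 405 fold changes include those with this prior count, whose side of the threshold was fixed in advance.

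Same-numbered libraries deviated together only weakly, with mean correlations over genes of 0.167 in HD-het and control, 0.0335 in HD-homo and control and 0.129 in HD-homo and HD-het cells, and not every pair was over 0.1, so the numbers were not taken to pair the samples. In HD-homo against control cells every library correlated best with its own number, and in the other comparisons not every library did, a hint from the data only. With the replicate block Atp2a2 in HD-het against control cells passed (0.168, adjusted p = 0.0297), no other call of a member changed, and 8372, 9160 and 9938 genes were called in HD-homo against control, HD-het against control and HD-homo against HD-het cells.

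Shares and levels per kb rest on transcript length. With the median length of the coding transcripts, in control, in HD-het and in HD-homo cells, the share of Itpr1 was 76.3%, 54.5% and 70.5%, of Itpr3 20.3%, 41.4% and 23.6%, of Stim1 42.8%, 47.3% and 55.2% and of Stim2 57.2%, 52.7% and 44.8%; that of Itpr2 was 3.38% in control and 5.86% in HD-homo cells. Levels per kb were then 169 for Atp2b1, 71.8 for Itpr1, 32.2 for Mcu, 10.6 for Stim1 and 4.47 for Itpr2. The median lengths of Itpr1 and Atp2b1, 807 and 1460 bases, are too short to encode the 2749 and 1220 amino acids of their longest transcripts. With the length of the principal transcript, chosen after seeing the data, Itpr2 stood at 2.77 CPM per kb and had shares of 7.30%, 5.28% and 11.0%, Stim1 of 36.7%, 41.0% and 48.9%, and Stim2 of 63.3%, 59.0% and 51.1%, while in control cells Itpr1 had 21.8% and Itpr3 70.9%. The members had 307 to 28597 reads per library, and counting error weighs most on the genes with the fewest, such as Orai1.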

Other observations

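Calcium genes up- and downstream of the store also differed between the lines. Of 11 tested genes of IP3 production and removal, 7 were higher and 2 lower in HD-het than in controls, and 5 were higher and 4 lower in HD-homo cells. Plce1, a phospholipase C, was at 2.49 ± 0.664 CPM in control, 18.6 ± 0.841 in HD-het and 13.1 ± 3.07 in HD-homo cells (SD, n = 3), higher in both HD lines (adjusted p = 4.28e-07 and 1.59e-06 by edgeR). Plcb4 was at 12.2 ± 0.825 CPM in control, 38.1 ± 2.56 in HD-het and 0.508 ± 0.0938 in HD-homo cells (SD, n = 3), 23.9-fold lower in HD-homo than in controls (adjusted p = 3.29e-10). Plcg2 was 1.42-fold lower in HD-het than in controls (adjusted p = 0.000488) and 2.07-fold lower in HD-homo than in controls (adjusted p = 2.19e-06). Of 12 tested genes of calcineurin and NFAT, the phosphatase and the transcription factors that read calcium entry, 6 were higher and 2 lower in HD-homo than in controls, and 5 were higher and 3 lower in HD-het cells. Nfatc1 was at 53.3 ± 0.324 CPM in control, 27.6 to 31.6 in single HD-het libraries and 288 ± 26.1 in HD-homo cells (SD, n = 3), 5.39-fold higher in HD-homo (adjusted p = 5.73e-10) and 1.84-fold lower in HD-het than in controls (adjusted p = 2.56e-06). Rcan3, a calcineurin regulator, was above controls in both HD lines, 2.09-fold in HD-het (adjusted p = 9.66e-07) and 2.11-fold in HD-homo cells (adjusted p = 7.01e-07). Ppp3r1, the calcineurin B subunit, was 1.19-fold lower in HD-homo (adjusted p = 0.00171) and 1.19-fold higher in HD-het cells (adjusted p = 0.00132), each against controls.

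Among genes of ER contacts and of the store lumen, Jph2, a junctophilin that ties the store to the plasma membrane, was at 14.8 ± 2.27 CPM in HD-het, 0.169 ± 0.0295 in control and 0.401 ± 0.299 in HD-homo cells (SD, n = 3; adjusted p = 5.59e-08 in HD-het against control cells). Casq1, the luminal calcium buffer calsequestrin, was at 13.8 ± 1.61 CPM in control and 7.86 ± 2.73 in HD-het cells (SD, n = 3) and had 3 to 5 reads in each HD-homo library (adjusted p = 2.94e-08 in HD-homo against control cells). Acta2, a smooth muscle actin, was at 2271 ± 186 CPM in control, 5290 ± 354 in HD-het and 91.8 ± 30.5 in HD-homo cells (SD, n = 3). Tagln and Cnn1 had the same order of lines. The smooth muscle markers Myh11 (control 28.5, HD-het 32.5, HD-homo 29.9 CPM) and Des (control 1.72, HD-het 1.44, HD-homo 2.57 CPM) had other orders. Casq1, highest in control cells, and Jph2, with its lowest mean there, also differed from Acta2 in order. The part of these markers in the levels of Jph2 and Casq1 was not tested. Of 13 tested genes of ER contact sites, 4 were higher and 6 lower in HD-homo than in controls, and 8 were higher and 2 lower in HD-het cells. Pacs2, a sorting protein of contacts between the ER and mitochondria, was 3.42-fold lower in HD-homo than in controls (adjusted p = 2.08e-09), and Vapb was higher by 0.38 on the log2 scale (adjusted p = 0.00148). In HD-het cells Pacs2 was 1.22-fold higher than in controls (adjusted p = 0.00187), and Vapb was higher by 0.24 on the log2 scale (adjusted p = 0.0186).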
